A study of Mus musculus with 24 samples.

Results

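Mouse tracheal epithelium grown from female mice was set against that grown from male mice before any smoke, using the inserts kept in humidified air. The comparison covers 13199 autosomal genes, those of 24009 on autosomes in the deposited table with a mean of at least 10 normalised counts over the 12 air libraries. Of the series' 24 libraries, 6 were female air inserts and 6 were male air inserts. Both sets were primary cells from tracheas of wild-type FVB/NJ mice, an inbred albino strain, taken at 7 to 8 weeks of age. After growth under medium, 10 to 14 days of differentiation with the upper side open to air were followed by 10 days in humidified air, with the same media for both sexes. Such air-liquid interface cultures sit on a porous membrane, fed from below, and build a layer of basal, secretory and ciliated cells. The labels number the inserts and name no animal, so a p-value measures the spread between inserts, which may be technical. Any other difference between the female and the male preparation cannot be told apart from sex.

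The air libraries held 16038813 to 24485024 reads on genes, and female air insert 1 held 16629866. Xist, the RNA that silences one X chromosome, ranged from 3665 to 14418 in female inserts, against 1.04 to 5.84 in male inserts, and Ddx3y, Eif2s3y, Kdm5d and Uty, all on the Y chromosome, had no reads in any female insert. Female air insert 1 stood apart: its Pearson correlation with the other 5 female inserts, over the log2 values of all tested genes, was 0.853 to 0.888. Those 5 correlated with each other at 0.968 to 0.994, the male inserts with each other at 0.984 to 0.994, and the 5 with the male inserts at 0.893 to 0.908. In female air insert 1, the shortest 25% of genes by transcript length (up to 1814 bases) lay 1.22 on the log2 scale above the median of the other female inserts, and the longest ones (from 4318 bases) lay at -0.92, both as medians over genes. Every count below was therefore repeated without it. Inserts 1 to 3 and 4 to 6 of each set also formed blocks (female inserts 2 and 3 with 4 to 6: 0.968 to 0.978), and values for the blocks are given for gene lists whose median changed sign or moved by at least 0.5 between them, and for some of the named genes.

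The tracheal lining is kept up by basal cells, which carry Trp63 and the keratins Krt5 and Krt14 and can turn into secretory club and goblet cells, into multiciliated cells, or into rare ionocytes, tuft and neuroendocrine cells. The airway arises from ventral foregut that expresses Nkx2-1, whereas the oesophagus arises from the dorsal part and forms a stratified squamous lining. In the mouse trachea, patches called hillocks carry a layered, Krt13-positive epithelium with squamous features. Injury, vitamin A shortage and some culture conditions can also turn airway epithelium squamous.

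Differences between the sets were widespread. With limma on log2(normalised count + 1), 5573 of 13199 genes (42.2%) passed an adjusted p of 0.05, of which 3007 (22.8% of those tested) were higher and 2566 (19.4%) lower in female inserts. A log2 difference of at least 1 in size, a change of 2-fold, was reached by 2395 genes (18.1%). At the far end, 200 called genes were at least 10-fold higher and 52 at least 10-fold lower in female inserts. Without female air insert 1 the same fit called 8746 genes (66.3%), and 5563 of the 5573 genes (42.1% of all tested) were called again with the same sign. There, 4401 genes (33.3%) were higher and 4345 (32.9%) lower. The libraries of the sets did not overlap for 2210 genes higher in female inserts (16.7%) and 2184 lower (16.5%). The median log2 difference of all genes was 0.02, and scaling the libraries to equal read totals moved it to -0.11 and the share of calls that were higher to 43.3%, against 54.0% with the deposited scaling. Values below are normalised counts, given as the lowest, median and highest of 6 inserts, and log2 differences are female minus male with their standard error (n = 6 inserts per set). A gene on the opposite strand overlaps some named ones, as for Ano3, Pax9, Gata6, Hoxb3, Hoxb5, Hoxb6, Timp3, Lrmp, Uchl1, Vil1, Nid2, Prdx5, Cryab, Ndufs1 and Zfp750. Cdc20b, Deup1, Dnah9, Atp1b1, Fosl1, Erbb2, Bmp4, Pkhd1 and Cdkn2b are further examples, and the list is not complete. The strandedness of counting is not given, so reads of such a pair may be mixed. The counts of a gene list below from this main fit are to be read against the 22.8% higher and 19.4% lower over all genes. Counts from another fit are to be read against all 13199 genes in that fit. Without female air insert 1 these are the 33.3% and 32.9% above. Under equal totals 2359 genes were higher and 3087 lower. It was 1575 and 1027 in inserts 1 to 3, 4023 and 4086 in inserts 4 to 6, and 3329 and 2419 by edgeR. No such number is given for an unadjusted p, so list counts at that threshold have no base to be read against. The constant of 1 makes the log2 difference too small for genes with low counts.

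**Figure D1:**
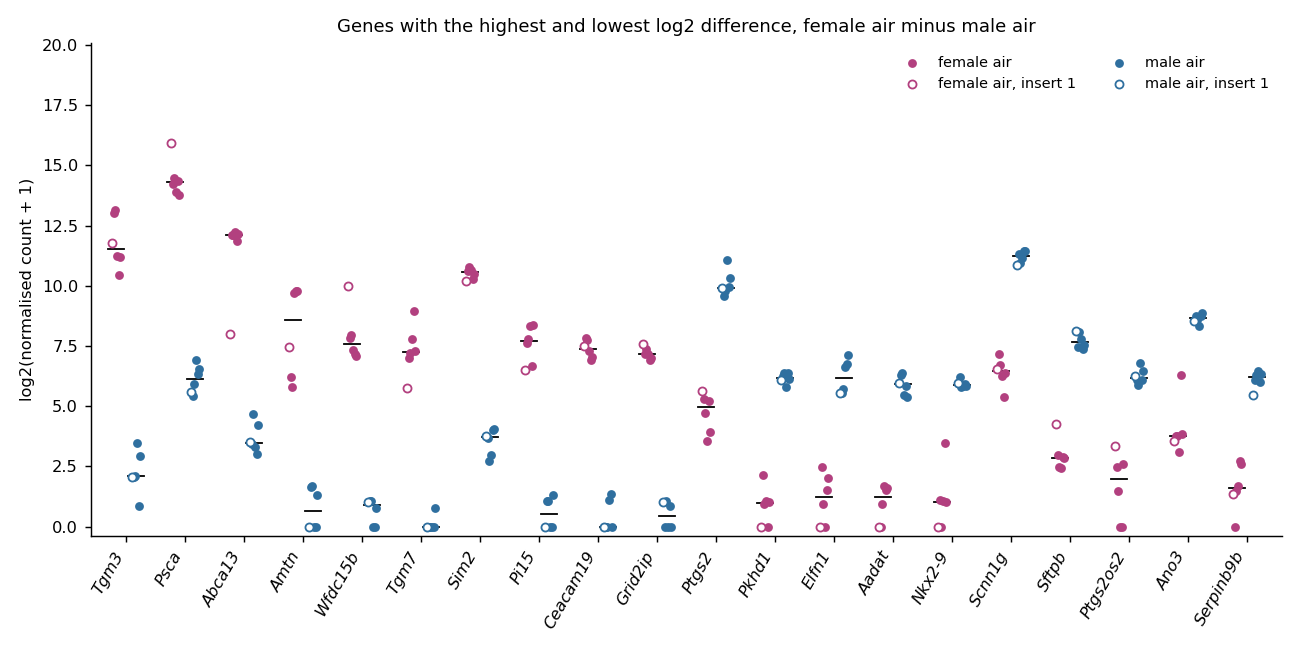
Log2(normalised count + 1) of the 10 autosomal genes with the highest and the 10 with the lowest log2 difference, 1 point per insert, female air left of male air for each gene. Bars mark group medians and open circles mark insert 1. The sets do not overlap for any of the 20 genes, which were chosen for that. Tgm3 spans 1396 to 9173 normalised counts in female inserts, against 0.788 to 10.1 in male inserts.

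The genes highest in female relative to male inserts included several of stratified epithelia. Tgm3, the transglutaminase that cross-links proteins of the cornified envelope (chromosome 2, 130012340 to 130050399, mm10), had 1396, 2974 and 9173 in female inserts, against 0.788, 3.27 and 10.1 in male inserts, a log2 difference of 9.56 ± 0.52 (adjusted p = 2.9e-08). Psca, a membrane-anchored antigen of the Ly6 family known from prostate and oesophageal epithelium (chromosome 15, 74714839 to 74717065), had 14100, 20059 and 63068 in female inserts, against 41.8, 69.2 and 119 in male inserts, a difference of 8.32 ± 0.36 (adjusted p = 4.62e-09). For both genes every female insert lay far above every male insert. Sim2, a transcription factor of the bHLH-PAS family, stood at 1170, 1502 and 1760 in female inserts, against 5.52, 12.1 and 15.3 in male inserts, a difference of 6.98 ± 0.23 (adjusted p = 5.7e-10). Amtn, a secreted protein known from enamel formation, had 54.6, 500.1 and 881 in female inserts, against 0, 0.731 and 2.21 in male inserts (7.35), and Abca13, a large lipid transporter, had 251, 4423 and 4860 in female inserts, against 7.09, 10.0 and 24.3 in male inserts (7.72). The lowest Abca13 value, 251, was female air insert 1, and the other 5 female inserts lay at 3735 to 4860. Wfdc15b, a protein of the whey acidic protein family, Tgm7, a second transglutaminase, Pi15, a peptidase inhibitor, Ceacam19, a cell adhesion family member, and Grid2ip, a scaffold known from Purkinje cells, differed by 7.24, 7.20, 6.98, 6.97 and 6.71.

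For 4 genes none of the male inserts had a read while the female mean was at least 10. These were Gng2, a G protein gamma subunit, Mroh4, the defensin Defb14 and the cornified envelope gene Sprr2d. Gng2 had 15.5, 92.9 and 306 normalised counts in female inserts, at least 234-fold higher than a floor of 3 reads over the male set. The same bound was 125-fold for Mroh4, 79.1-fold for Defb14 and 54.6-fold for Sprr2d, whose near-identical neighbours may take some of its reads. No autosomal gene had such a mean in the male set and no reads in the female set.

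At the other end stood Ptgs2, which encodes the inducible cyclooxygenase COX-2 (chromosome 1, 150100031 to 150108234). It had 10.9, 30.8 and 48.7 in female inserts, against 750.0, 969.7 and 2162 in male inserts, a log2 difference of -5.37 ± 0.37 (adjusted p = 1.92e-07). Ptgs2os2, an RNA annotated nearby on the other strand (chromosome 1, 150159043 to 150164948) with no overlap of the models, differed by -4.61. Pkhd1, the fibrocystin of primary cilia, had 0, 0.964 and 3.40 in female inserts, against 55.1, 71.9 and 82.8 in male inserts (-5.31), and Sftpb, surfactant protein B, had 4.36, 6.30 and 18.3 in female inserts, against 164, 202 and 273 in male inserts (-4.75). Scnn1g, the gamma subunit of the epithelial sodium channel, had 40.8, 86.9 and 141 in female inserts, against 1876, 2417 and 2777 in male inserts, a difference of -4.78 ± 0.24 (adjusted p = 1.6e-08). In these 4 protein-coding genes the highest female insert was below the lowest male insert. Elfn1, a synaptic adhesion protein, Aadat, an aminotransferase of tryptophan breakdown, Nkx2-9, a homeobox factor, Ano3, an anoctamin, and Serpinb9b, a serpin with close paralogues, differed by -5.06, -4.94, -4.81, -4.59 and -4.48.

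Airway transcription factors differed in both directions. Of that list, 17 were called higher and 11 lower of 42 measured, with a median log2 difference of 0.37 (0.22 without female air insert 1). Nkx2-1, needed to form trachea and lung (chromosome 12, 56531935 to 56536908), had 147, 271 and 386 in female inserts, against 2722, 2829 and 2897 in male inserts, a log2 difference of -3.51 ± 0.21 (adjusted p = 6.5e-08). The female inserts thus held Nkx2-1 RNA well above 0, but the highest of them was below every male insert. Gata6, a foregut and lung factor, had 16.3, 25.9 and 49.1 in female inserts, against 254, 313 and 325 in male inserts (-3.41). Other airway factors were lower in female inserts as well, namely Foxa2 (-1.41 ± 0.23), the Iroquois genes Irx1 (-2.06 ± 0.10) and Irx2 (-1.79 ± 0.12), and Six4 (-1.57 ± 0.18) and its cofactor Eya1 (-1.32 ± 0.15). Foxa1, a pioneer factor of endoderm, did not pass (-0.16 ± 0.09, adjusted p = 0.199).

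Other members of the same list were higher in female inserts. Pitx1, a factor of hindlimb and oral epithelium, had 6969, 9644 and 12138 in female inserts, against 1614, 1785 and 1887 in male inserts (2.42 ± 0.11). Pax9, which marks foregut pouches, oesophagus and teeth, had 1386, 4196 and 4267 in female inserts, against 1282, 1316 and 1396 in male inserts (1.39 ± 0.24), and the lowest female insert, insert 1, overlapped the male range while the other 5 lay at 3883 to 4267. On chromosome 12 it lies close to 2 genes that moved the other way, with Pax9 at 56695471 to 56712822, Nkx2-9 at 56611397 to 56613284 and Nkx2-1 at 56531935 to 56536908. Elf5, an epithelial ETS factor, differed by 2.66 ± 0.11, Sox2, the factor of dorsal foregut and of airway basal cells, by 0.61 ± 0.09, and Zfp750 and Klf4, both drivers of terminal epidermal differentiation, by 1.56 ± 0.13 and 1.36 ± 0.25.

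Hox genes, which record position along the body, split by cluster. In that list 8 were called higher and 5 lower of 17 measured, with a median log2 difference of 0.39 (0.67 without female air insert 1). The 4 measured members of the HoxC cluster on chromosome 15 were all among those higher. Hoxc4 (chromosome 15, 103034395 to 103036852) had 601, 978 and 1264 in female inserts, against 10.1, 18.2 and 32.1 in male inserts, a difference of 5.58 ± 0.27 (adjusted p = 1.43e-08). Hoxc6 had 40.8, 86.2 and 117 in female inserts, against 0, 0 and 0.731 in male inserts (6.16 ± 0.31), while Hoxc5 and Hoxc8 differed by 5.49 ± 0.22 and 4.90 ± 0.33. In HoxA, Hoxa4, Hoxa5, Hoxa6 and Hoxa7 were higher by 0.95, 0.98, 0.97 and 1.21. The models of Hoxa4, Hoxa5 and Hoxa6 lie within another Hox model, so reads there may be split. In HoxB the called genes were lower in female inserts, from -0.44 for Hoxb3 and -0.59 for Hoxb4 to -1.40 for Hoxb6, -1.63 for Hoxb5 and -2.73 for Hoxb7, which had 1.09, 3.22 and 7.13 in female inserts, against 20.7, 25.7 and 39.8 in male inserts.

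**Figure D2:**
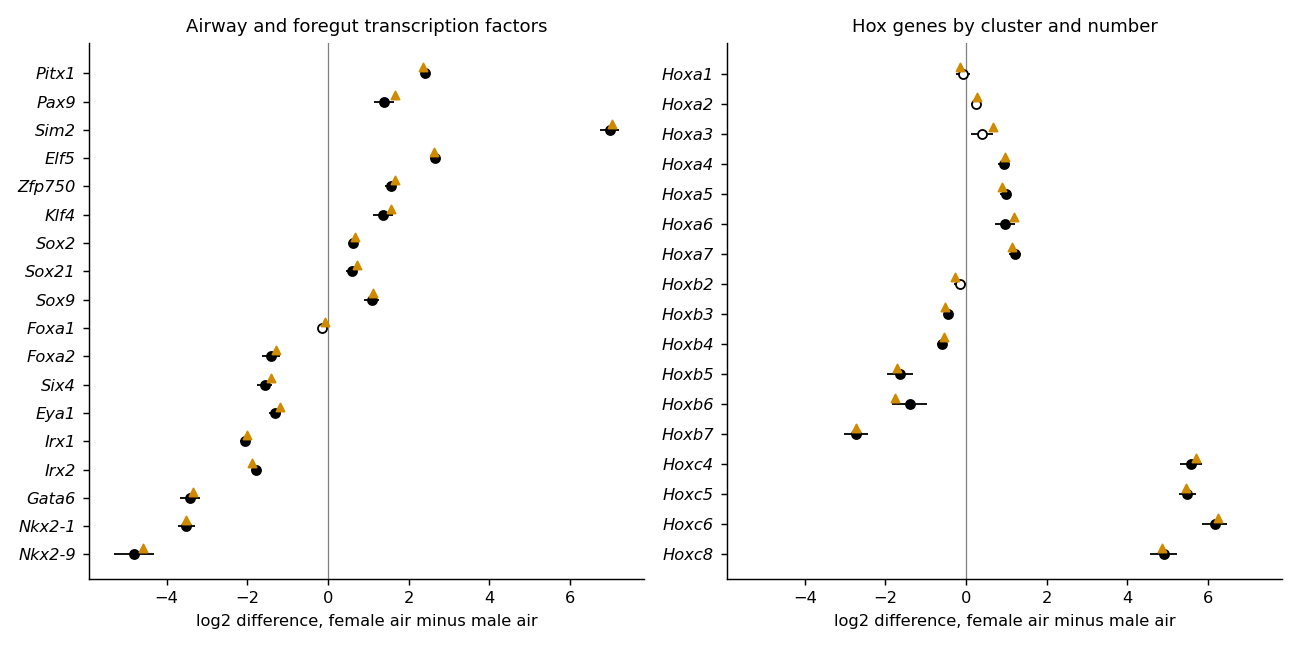
Log2 difference, female air minus male air, of foregut and airway transcription factors (left) and measured Hox genes (right). Circles with bars give the difference over 6 inserts per set with its standard error, filled where the adjusted p is under 0.05, and triangles give the value without female air insert 1. Sim2 and the HoxC genes lie farthest to the right, and Nkx2-1, Gata6 and Nkx2-9 farthest to the left.

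Squamous and hillock genes were mostly higher in female inserts. In the list of hillock, squamous and cornified envelope genes, 32 were called higher and 5 lower of 45 measured, with a median log2 difference of 1.76. Krt13, the keratin of hillocks and of the oesophagus (chromosome 11, 100117328 to 100121566), had 112010, 165212 and 272013 in female inserts, against 4188, 4698 and 8642 in male inserts, a log2 difference of 5.00 ± 0.23 (adjusted p = 9.15e-09). It took 0.607 to 1.07% of all reads in female inserts, against 0.0239 to 0.0479% in male inserts. Its partner Krt4 differed by 2.68 ± 0.14, and Krt6a and Krt6b, keratins of stressed and hyperproliferative epithelium that share sequence, differed by 3.56 ± 0.24 and 4.80 ± 0.51. Lypd3, a Ly6 family protein of suprabasal cells, had 2028, 2273 and 3036 in female inserts, against 57.5, 72.5 and 86.2 in male inserts (5.02 ± 0.13), and Calml3, a calmodulin-like protein of stratified epithelia, had 7352, 12023 and 18162 in female inserts, against 667, 1040 and 1442 in male inserts (3.61 ± 0.25).

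Other cornified envelope genes moved in the same direction. Csta1, a cysteine protease inhibitor with close paralogues, had 101, 131 and 548 in female inserts, against 0, 2.65 and 3.37 in male inserts (5.77 ± 0.46), and Sbsn, suprabasin, had 451, 682 and 1596 in female inserts, against 54.7, 89.3 and 114 in male inserts (3.10 ± 0.27). Neither gene overlapped between the sets. The list was not uniform, since 5 members were lower, among them Klk13, a kallikrein (-3.59 ± 0.32), and Serpinb2, the plasminogen activator inhibitor of stressed epithelium (-3.18 ± 0.39). Sprr1a, an envelope precursor, did not pass (-0.72 ± 0.38, adjusted p = 0.145), nor did Krt10, a keratin of the suprabasal epidermis (0.47 ± 0.28, adjusted p = 0.194). The oesophagus list, which shares Tgm3 and Krt13 with the squamous one, had 12 of 14 measured members higher and 1 lower, with a median of 1.80. Its lower member was Crnn, cornulin, a late gene of oesophageal differentiation, with 1.52, 2.02 and 3.40 in female inserts, against 13.4, 18.5 and 39.4 in male inserts (-2.73 ± 0.31). Summed over the list, levels were 221985 to 398335 in female inserts, against 35886 to 48523 in male inserts. Whether cells of that tissue added to the result was not tested.

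**Figure D3:**
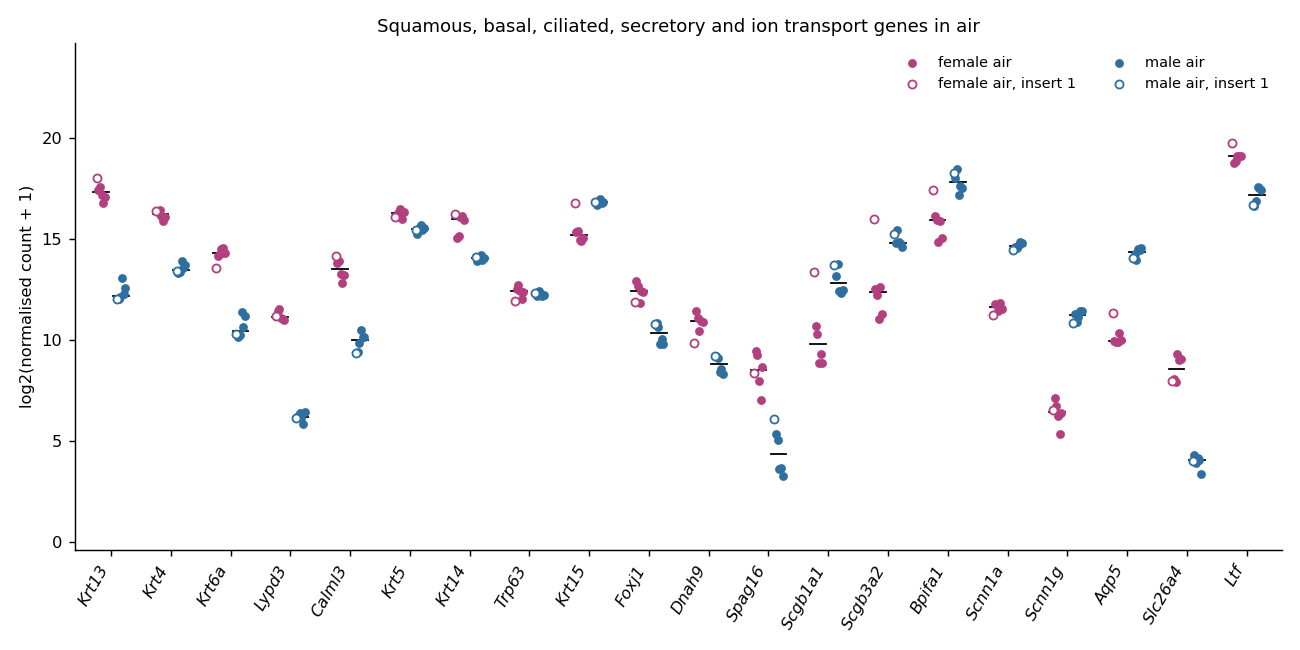
Log2(normalised count + 1) of squamous, basal, ciliated, secretory and ion transport genes in each air insert, female air left of male air, with bars at group medians and open circles for insert 1. Krt13, Lypd3 and Slc26a4 lie higher and Aqp5, Scnn1a and Scnn1g lower in every female insert than in any male insert. Trp63 overlaps, and Krt15, Scgb1a1, Scgb3a2 and Bpifa1 overlap through the open circle of female air insert 1.

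Multiciliated cell genes were higher in female inserts almost without exception. Multiciliated cells form many motile axonemes, and Foxj1 and Rfx factors switch on axoneme genes by binding their promoters, Rfx at an X-box. In the list of axoneme and motile cilia genes, 76 were called higher and 0 lower of 80 measured, with a median log2 difference of 1.85, and without female air insert 1 all 80 were called higher. At an unadjusted limma p under 0.05 it was 78 higher and 0 lower, and edgeR called 79 higher and 0 lower. Promoters are shown for the 3 axoneme genes with the highest log2 difference among those with an X-box match. They are RefSeq sequences on GRCm38.p6, 300 bases from 250 before to 50 after the start, with the matched 14 bases in capitals. Pifo lies at chr3:106001448-106001747 on the minus strand, Zmynd10 at chr9:107547054-107547353 on the plus strand and Cfap206 at chr4:34730157-34730456 on the minus strand.
Pifo: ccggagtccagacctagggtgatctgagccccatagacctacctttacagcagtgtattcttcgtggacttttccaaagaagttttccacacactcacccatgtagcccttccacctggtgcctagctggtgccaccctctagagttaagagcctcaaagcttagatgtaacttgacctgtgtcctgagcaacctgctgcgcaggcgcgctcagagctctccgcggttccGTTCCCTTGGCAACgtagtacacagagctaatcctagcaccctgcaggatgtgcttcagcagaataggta
Zmynd10: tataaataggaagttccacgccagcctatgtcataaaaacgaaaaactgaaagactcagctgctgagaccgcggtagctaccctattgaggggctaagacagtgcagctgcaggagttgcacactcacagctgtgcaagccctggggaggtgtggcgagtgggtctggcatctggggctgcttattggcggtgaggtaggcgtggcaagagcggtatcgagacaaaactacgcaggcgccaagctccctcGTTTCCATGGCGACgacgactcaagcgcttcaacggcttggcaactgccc
Cfap206: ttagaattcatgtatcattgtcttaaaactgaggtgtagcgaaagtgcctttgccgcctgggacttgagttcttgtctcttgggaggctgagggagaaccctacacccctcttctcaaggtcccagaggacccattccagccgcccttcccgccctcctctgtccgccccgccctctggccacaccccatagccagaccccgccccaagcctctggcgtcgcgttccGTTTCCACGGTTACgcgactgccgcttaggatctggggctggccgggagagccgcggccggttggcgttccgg
The letters searched were GTNNCC and GGNAAC with 2 bases of any kind between them, on either strand, and were chosen after match counts had been seen. They occurred in 7 of 65 axoneme promoters (10.8%) and in 2 of 16 promoters of fate regulators (12.5%). Over all autosomal genes with a promoter on the chromosomes used it was 396 of 25748 (1.54%). That set is larger than the 24009 autosomal genes of the deposited table. Of its members that were tested it was 229 of 10426 (2.2%), so not all of the 13199 tested genes were searched. A match is a description of letters and shows no binding, and its part in the differences was not tested.

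Among the axoneme genes, Pifo, a ciliary base protein, had 401, 655 and 2792 in female inserts, against 117, 171 and 207 in male inserts, a difference of 2.25 ± 0.38 (adjusted p = 0.00037). Zmynd10, needed to assemble dynein arms, had 442, 632 and 1261 in female inserts, against 90.0, 167 and 219 in male inserts (2.18 ± 0.29), and Cfap206, a radial spoke protein, had 676, 1151 and 1412 in female inserts, against 189, 274 and 334 in male inserts (2.04 ± 0.20). In none of them did the sets overlap. Spag16, of the central pair, differed most in the list, with 132, 371 and 718 in female inserts, against 8.77, 21.9 and 67.3 in male inserts (3.96 ± 0.53). Tekt3, a tektin, differed by 2.75 ± 0.62 and Dnah9, an outer dynein heavy chain, by 1.95 ± 0.26. Among fate regulators, 15 were called higher and 0 lower of 19 measured, with a median log2 difference of 1.05, and edgeR and an unadjusted limma p under 0.05 each gave 15 higher and 0 lower. Foxj1, the master regulator of motile cilia, had 3723, 5460 and 7708 in female inserts, against 886, 1343 and 1830 in male inserts (2.04 ± 0.24). Deup1, which builds the deuterosomes that multiply centrioles, had 337, 528 and 1073 in female inserts, against 40.5, 109 and 199.9 in male inserts (2.59 ± 0.47), and Foxn4 and Cdc20b, both expressed while centrioles multiply, differed by 2.81 ± 0.58 and 2.74 ± 0.46. E2f4, a cofactor of the programme, did not pass (-0.11 ± 0.07, adjusted p = 0.214). In bulk RNA, more ciliated cells and more cilia RNA per cell cannot be told apart, and this holds for each cell type below.

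Basal cell genes showed no common direction. In that list 9 were called higher and 5 lower of 30 measured, with a median log2 difference of 0.03 (0.16 without female air insert 1 and -0.10 under equal totals). Without female air insert 1 it was 12 higher and 8 lower. Trp63, the basal cell master factor, had 3919, 5488 and 6754 in female inserts, against 4613, 5007 and 5459 in male inserts and did not pass (0.07 ± 0.13, adjusted p = 0.693). Krt5 was higher, with 64879, 80682 and 91238 in female inserts, against 38677, 46115 and 52890 in male inserts (0.77 ± 0.13), as was Krt14 (1.70 ± 0.21), while Krt15, a keratin of resting basal cells, had 31289, 38296 and 113299 in female inserts, against 106565, 116397 and 131429 in male inserts (-1.42 ± 0.28). Pdpn, podoplanin, was lower with 344, 466 and 1032 in female inserts, against 2755, 3015 and 3345 in male inserts (-2.53 ± 0.21), as was Cav1, caveolin (-2.14 ± 0.13). Fhl2, a LIM-domain cofactor, was the highest called member at 2.01 ± 0.22, followed by Igfbp2 at 1.94 ± 0.57, whose libraries overlapped.

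Cell adhesion genes were counted by type of junction. For adherens junctions and desmosomes, 12 were called higher and 2 lower of 26 measured, with a median log2 difference of 0.51, and 19 higher and 2 lower without female air insert 1. Cdh26, a cadherin of inflamed airway and gut epithelium, had 646, 1100 and 1993 in female inserts, against 22.9, 40.6 and 63.2 in male inserts (4.77 ± 0.35), and Dsc3, a desmosomal cadherin of stratified layers, had 831, 1570 and 2192 in female inserts, against 263, 322 and 429.6 in male inserts (2.21 ± 0.21). Nectin3 was lower at -2.59 ± 0.24 and Pkp2, plakophilin 2, at -0.33 ± 0.08. For tight junctions, 7 were called higher and 7 lower of 29 measured, with a median log2 difference of 0.04 (0.07 without female air insert 1 and -0.09 under equal totals), and 12 higher and 10 lower without female air insert 1. In the main fit the tight junction shares, 24.1% higher and 24.1% lower, were close to the 22.8% and 19.4% of all genes. Cldn10 and Cldn1, both claudins, were the highest at 2.35 ± 0.23 and 1.56 ± 0.30, while Pard6b, a polarity protein, and Cldn22 were the lowest at -1.54 ± 0.17 and -1.28 ± 0.30.

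Secretoglobin genes of club cells were lower in female inserts. In the club and secretory list 6 were called higher and 14 lower of 33 measured, with a median log2 difference of -0.65, and without female air insert 1 the counts were 8 higher and 20 lower. By edgeR over all libraries they were 7 higher and 8 lower, and in inserts 1 to 3 by limma 4 higher and 4 lower. Scgb1a1, the club cell secretoglobin, had 465, 961 and 10478 in female inserts, against 5169, 7537 and 13932 in male inserts, a difference of -2.75 ± 0.67 (adjusted p = 0.00501). Female air insert 1 was the highest female value, and without it the difference was -3.37. Scgb3a2, a second secretoglobin, had 2152, 5368 and 66701 in female inserts, against 25128, 29254 and 44689 in male inserts (-2.33 ± 0.66, and -3.01 without that insert), and Scgb3a1 differed by -2.25 ± 0.68. Both secretoglobin transcripts are short, and the short-transcript shift of that insert points the same way as its high values, though its part was not tested. Cyp2f2, a club cell cytochrome, differed less (-0.67 ± 0.20). Reg3g, an antibacterial lectin, ran the other way, with 1814, 2445 and 9968 in female inserts, against 821, 1170 and 1232 in male inserts (1.53 ± 0.36).

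Goblet cell and mucus genes split. In that list 9 were called higher and 3 lower of 18 measured, with a median log2 difference of 0.76. Agr2, a disulphide isomerase needed to fold mucins, had 797, 953 and 2883 in female inserts, against 68.7, 89.0 and 118 in male inserts (3.61 ± 0.29), and Muc13, a membrane mucin, had 84.6, 105 and 149 in female inserts, against 8.84, 12.1 and 18.00 in male inserts (3.05 ± 0.21). Muc5b, the main gel-forming mucin of the resting mouse airway, was lower with 3.27, 53.2 and 65.4 in female inserts, against 129, 156 and 198 in male inserts (-2.33 ± 0.57), as was Atoh8, a bHLH factor (-2.09 ± 0.28). Spdef, the goblet cell factor, did not pass (0.36 ± 0.24, adjusted p = 0.26), and Muc5ac fell short of the mean of 10 and was not tested. For submucosal gland genes, 8 were called higher and 3 lower of 14 measured, with a median log2 difference of 1.42. Ltf, lactoferrin, was the most plentiful of these, at 2.46 to 3.56% of all reads in female inserts and 0.59 to 1.09% in male inserts (2.00 ± 0.26). Lpo, lactoperoxidase, and Dmbt1, a scavenger receptor protein, were higher by 2.54 ± 0.38 and 2.41 ± 0.62. Azgp1, a secreted glycoprotein, was lower at -1.44 ± 0.52, a call lost when any one of female inserts 2, 4, 5 or 6 or male inserts 2 to 6 was left out (limma adjusted p up to 0.0909).

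Genes of distal lung and surfactant were lower in female inserts with exceptions. In that list 4 were called higher and 13 lower of 18 measured, with a median log2 difference of -0.998. Beside Sftpb, Sftpd, a collectin that binds microbes, had 2463, 3950 and 10014 in female inserts, against 20800, 22067 and 25062 in male inserts (-2.42 ± 0.28). Aqp5, a water channel of airway and alveolus, had 964, 1009 and 2615 in female inserts, against 16322, 21346 and 24086 in male inserts, a difference of -4.07 ± 0.23 (adjusted p = 4.2e-08). Sftpc, known as the most specific surfactant gene of alveolar type 2 cells, went the other way with 155, 264 and 1756 in female inserts, against 13.5, 21.3 and 30.0 in male inserts (3.88 ± 0.49), as did Hopx, a homeodomain protein of alveolar type 1 cells and of stratified epithelia (1.95 ± 0.15).

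Ion transport genes moved in both directions, channel by channel. In the list of ion and water transport 12 were called higher and 11 lower of 31 measured, with a median log2 difference of -0.06 (-0.04 without female air insert 1). All 3 subunits of the epithelial sodium channel, which absorbs sodium from the airway surface, were lower, with Scnn1a at 2463, 3219 and 3623 in female inserts, against 22287, 25892 and 29765 in male inserts (-3.06 ± 0.12) and Scnn1b at 30.6, 51.8 and 111 in female inserts, against 616, 768 and 869 in male inserts (-3.86 ± 0.28), beside Scnn1g above. Scnn1b and Scnn1g are neighbours on chromosome 7. Atp1b1, the beta subunit of the sodium pump, was lower too (-2.25 ± 0.14). Anion and acid-base genes were among the highest: Car12, a membrane carbonic anhydrase, had 149, 553 and 687 in female inserts, against 10.7, 18.7 and 23.2 in male inserts (4.62 ± 0.35), and Slc26a4, the anion exchanger pendrin, had 241, 398 and 643 in female inserts, against 9.50, 15.7 and 19.3 in male inserts (4.58 ± 0.28). Best2, a bestrophin anion channel, differed by 4.01 ± 0.33 and Kcne3, a potassium channel subunit, by 2.55 ± 0.16. Cftr, the chloride channel mutated in cystic fibrosis, did not pass (-0.19 ± 0.34, adjusted p = 0.678). In the ionocyte list, 3 were called higher and 4 lower of 13 measured, with a median log2 difference of -0.19, and Foxi1, the ionocyte factor, did not pass (-0.55 ± 0.28, adjusted p = 0.142). Its called members were mostly proton pump subunits and other genes not limited to ionocytes, such as Atp6v1b1 (0.96 ± 0.27), Moxd1 (1.01 ± 0.27), Atp6v0d2 (-2.42 ± 0.23) and Pparg (-2.25 ± 0.19).

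The other rare cell types gave no common direction. In the tuft cell list 5 were called higher and 6 lower of 22 measured, with a median log2 difference of -0.31. Dclk1, a kinase used as a tuft cell marker, had 196, 274 and 487 in female inserts, against 3313, 3820 and 4231 in male inserts, a difference of -3.71 ± 0.18 (adjusted p = 1.18e-08), and Plcb2, a taste signalling phospholipase, was lower at -2.09 ± 0.43. Lrmp and Hpgds, a prostaglandin D synthase, were higher at 1.81 ± 0.29 and 1.53 ± 0.24. In the neuroendocrine list 3 were called higher and 1 lower of 11 measured, with a median log2 difference of 0.31 (0.14 without female air insert 1 and under equal totals 2 called higher and 2 lower), and 3 higher and 2 lower without female air insert 1, with Uchl1, a neuronal deubiquitinase (3.78 ± 0.44), and Cib3 (1.92 ± 0.48) higher and Calcb, a calcitonin gene-related peptide (-1.52 ± 0.38), lower.

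Marker lists of cells from outside the epithelium differed in level and direction. Of 25 leukocyte genes 6 were measured, of which 4 were called higher and 1 lower, with a median log2 difference of 2.60. Laptm5, a lysosomal protein of blood cells, had 185, 388 and 675 in female inserts, against 0, 3.61 and 6.75 in male inserts (6.54 ± 0.48), and Itgam, the integrin CD11b, had 394, 1294 and 1653 in female inserts, against 12.9, 30.0 and 60.7 in male inserts (5.28 ± 0.43). Of the other genes of the list, Tyrobp and Adgre1 had no reads in all 12 libraries, and Ptprc, the pan-leukocyte CD45, stayed at or under 5.67 normalised counts in female inserts and 8.29 in male inserts. Summed over the list, levels were 8015 to 13729 in female inserts, against 10594 to 11849 in male inserts, mostly from Cd14 (-1.02 ± 0.21), which airway epithelium also makes. Endothelial genes summed to 41.4 to 135 in female inserts, against 26.8 to 71.9 in male inserts, with Cdh5 at 0 in all 12 libraries and neither of the 2 measured genes called by limma or by edgeR (1 higher at an unadjusted limma p under 0.05, and 1 higher and 1 lower called by limma without female air insert 1). Fibroblast genes summed to 498 to 2315 in female inserts, against 416 to 751 in male inserts, and 4 were called higher and 4 lower of 12 measured, with a median log2 difference of -0.59 (0.07 without female air insert 1). The fibroblast median was -1.42 over inserts 1 to 3 and 0.64 over inserts 4 to 6. There, Fbn1, fibrillin 1, ran from 7.61 to 487 in female inserts, against 6.75 to 10.4 in male inserts, with 1.31 in inserts 1 to 3 and 4.74 in inserts 4 to 6, and Pi16 differed by 3.47 ± 0.40, while Col6a2 and Twist2 were lower at -3.18 ± 0.61 and -3.16 ± 0.38.

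Smooth muscle and cartilage genes summed to 659 to 3812 in female inserts, against 762 to 847 in male inserts. Of 6 measured, 3 were higher (5 without female air insert 1), with Acta2, smooth muscle actin (2.28 ± 0.49), and Myh11, smooth muscle myosin (1.76 ± 0.33), among them, and 1, Smtn (-0.70 ± 0.19), lower. Inserts 1 to 3 alone gave 0 higher and 1 lower by limma (2 higher at an unadjusted p under 0.05), and inserts 4 to 6 gave 5 higher and 1 lower. The median of these genes was 0.35 over inserts 1 to 3 and 1.79 over inserts 4 to 6, and edgeR over all libraries gave 5 higher and 1 lower. Skeletal muscle genes summed to 107 to 324 in female inserts, against 44.2 to 75.4 in male inserts, with 2 of 3 measured higher (1 when any one of 9 libraries was left out), Acta1 at 4.80 ± 0.42 among them. Thyroid and parathyroid genes summed to 349 to 1065 in female inserts, against 209 to 308 in male inserts, with 3 of 5 higher, Dio1 (3.37 ± 0.42) and Duoxa2 (1.89 ± 0.29) among them, both also made outside the thyroid. Schwann cell and neuron genes summed to 3708 to 7697 in female inserts, against 6260 to 7021 in male inserts, with 3 of 5 higher, Stmn2 (3.77 ± 0.72) and S100b (2.76 ± 0.38) among them, and Mbp, called lower (-0.37 ± 0.13), lost its call without male insert 4, 5 or 6 (limma adjusted p up to 0.0717). Whether such cells added to any result was not tested.

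Lists of developmental signalling held calls in both directions. In the Notch list, which sets secretory against ciliated fate, 7 were called higher and 3 lower of 22 measured, with a median log2 difference of -0.05 (under equal totals 6 called higher and 5 lower), and without female air insert 1 it was 10 higher and 9 lower. In the main fit, the share of its members called was close to that of all genes (42.2%). Notch4 had 89.1, 114 and 132 in female inserts, against 5.52, 8.04 and 9.66 in male inserts (3.71 ± 0.18), and the ligand Jag1 had 3221, 5012 and 5267 in female inserts, against 1931, 2086 and 2619 in male inserts (1.13 ± 0.13). Hes2, a repressor of the Hes family, was higher at 3.45 ± 0.35. The ligand Dll1 and the coactivator Maml1 were lower at -0.48 ± 0.14 and -0.55 ± 0.18. Among epidermal growth factor receptors and ligands, 2 were called higher and 8 lower of 17 measured, with a median log2 difference of -0.37 (under equal totals 1 called higher and 8 lower), and 7 higher and 8 lower without female air insert 1. The ligand Ereg, epiregulin, had 111, 127 and 206 in female inserts, against 625, 754 and 1119 in male inserts (-2.54 ± 0.18), and Nrg1, neuregulin, and Areg, amphiregulin, were lower at -2.14 ± 0.16 and -1.18 ± 0.25. The receptor Erbb2 was higher at 0.50 ± 0.08, and Lrig3, a regulator of these receptors, at 0.68 ± 0.18.

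In the WNT and BMP list, 12 were called higher and 7 lower of 37 measured, with a median log2 difference of 0.28. Bmp4, a ligand of ventral foregut, had 49.0, 81.4 and 89.6 in female inserts, against 460.1, 523 and 591 in male inserts (-2.85 ± 0.15), and its receptor Bmpr1b was lower too (-2.34 ± 0.14). Sfrp2, a secreted WNT modulator, and Rspo3, a WNT enhancer, were higher at 4.58 ± 0.62 and 2.68 ± 0.44. In the TGF-beta list, 10 were called higher and 2 lower of 25 measured, with a median log2 difference of 0.62. Its median was 0.10 over inserts 1 to 3 and 1.45 over inserts 4 to 6, with 5 higher and 3 lower in inserts 1 to 3 and 19 higher and 2 lower in inserts 4 to 6. Tgfbi, a TGF-beta induced matrix protein, had 1585, 3097 and 5329 in female inserts, against 112, 167 and 210.3 in male inserts, a difference of 4.19 ± 0.32 (adjusted p = 5.62e-07), whereas the ligand Tgfb2 was lower (-1.13 ± 0.33). For basement membrane and matrix, 12 were called higher and 7 lower of 26 measured, with a median log2 difference of 1.14, but the median was -0.15 over inserts 1 to 3 and 1.90 over inserts 4 to 6. Amtn and C1qtnf3, a secreted C1q-like protein, led that list, and Nid2 and Nid1, the nidogens that link basement membrane networks, were lowest at -4.25 ± 0.45 and -2.63 ± 0.59.

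Inflammatory mediators were lower in female inserts as a group. In that list 5 were called higher and 19 lower of 29 measured, with a median log2 difference of -1.06. Beside Ptgs2, the neutrophil-attracting chemokine Cxcl2 had 4.36, 12.9 and 38.0 in female inserts, against 103, 141 and 211 in male inserts (-3.30 ± 0.40), and Cxcl1 and Cxcl5 were lower at -3.08 ± 0.25 and -1.86 ± 0.34. Lif, a cytokine of the interleukin 6 family, differed by -3.16 ± 0.25, Ccl20, a chemokine for dendritic cells, by -2.48 ± 0.49, and Icam1, the leukocyte adhesion receptor, by -1.85 ± 0.09. Among the 5 higher members, Ppbp, a chemokine known from platelets, had 747, 1368 and 2254 in female inserts, against 18.6, 23.4 and 54.1 in male inserts (5.52 ± 0.35), and S100a9, a subunit of calprotectin, had 9.17, 27.5 and 98.9 in female inserts, against 0, 0 and 1.12 in male inserts (4.43 ± 0.49).

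Interferon response genes were mostly lower or not called. In that list 4 were called higher and 16 lower of 45 measured, with a median log2 difference of -0.28. Ifit1, an inhibitor of viral RNA translation, had 59.9, 115 and 169 in female inserts, against 1302, 1702 and 1982 in male inserts, a difference of -3.98 ± 0.24 (adjusted p = 6.5e-08), and Iigp1, an immunity GTPase, had 1.02, 2.61 and 3.71 in female inserts, against 19.9, 35.2 and 72.5 in male inserts (-3.53 ± 0.33). Oasl1 and Ifitm1 were higher at 1.57 ± 0.22 and 1.53 ± 0.29. In the antigen presentation list 2 were called higher and 4 lower of 20 measured, with a median log2 difference of -0.10 (-0.42 without female air insert 1 and under equal totals 2 called higher and 7 lower), and without female air insert 1 it was 2 higher and 12 lower. H2-Ab1, a class II beta chain, had 322, 1140 and 1968 in female inserts, against 20.4, 31.2 and 37.5 in male inserts (4.83 ± 0.45), while its partner H2-Aa was nearly without reads, with 0, 0.463 and 4.56 in female inserts, against 0, 0 and 0.788 in male inserts. Nlrc5, the class I transactivator, was lower (-1.89 ± 0.19), as were Tap1, a peptide transporter (-0.72 ± 0.10), and H2-Q6, a class I gene with near-identical copies (-1.62 ± 0.39). Cd1d1 was higher (1.37 ± 0.25).

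Antimicrobial proteins moved in both directions. In that list 13 were called higher and 4 lower of 23 measured, with a median log2 difference of 1.42 (under equal totals 12 called higher and 7 lower), and 14 higher and 9 lower without female air insert 1. Pglyrp4, a peptidoglycan binding protein, had 149, 192 and 260.1 in female inserts, against 0, 0.518 and 5.62 in male inserts (6.66 ± 0.46), and Chil4, a chitinase-like protein with near-identical paralogues, had 59.1, 109 and 263 in female inserts, against 0, 2.78 and 5.52 in male inserts (5.30 ± 0.56). Bpifa1, a secreted airway surface protein, was lower with 29544, 62487 and 175413 in female inserts, against 149583, 234226 and 359428 in male inserts (-1.96 ± 0.39), and Lcn2, a siderophore binder, had 11098, 15334 and 43471 in female inserts, against 45310, 50017 and 59622 in male inserts (-1.53 ± 0.27). Among Toll-like receptors and adaptors, 7 were called higher and 6 lower of 21 measured, with a median log2 difference of 0.01 (0.15 without female air insert 1 and -0.12 under equal totals). Nod1, a bacterial sensor, and Nlrp10 were highest at 2.36 ± 0.19 and 2.26 ± 0.61, and Aim2, a DNA sensor, and Tlr3, an RNA sensor, lowest at -2.89 ± 0.34 and -1.23 ± 0.12.

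Stress response genes did not move as one. Immediate early genes, which respond within minutes to growth or wounding signals, were lower as a group, for 2 were called higher and 16 lower of 24 measured, with a median log2 difference of -0.87. Nr4a1, an orphan nuclear receptor, had 27.4, 36.7 and 50.02 in female inserts, against 238, 474 and 683 in male inserts (-3.55 ± 0.25), Egr1 had 1152, 1541 and 2772 in female inserts, against 2753, 5827 and 9177 in male inserts (-1.72 ± 0.31), and Fosl1 was lowest at -3.90 ± 0.41, while Fosl2 and Klf2 were higher at 1.22 ± 0.18 and 1.13 ± 0.34. For p53 targets, 2 were called higher and 16 lower of 27 measured, with a median log2 difference of -0.90. Cdkn1a, the cell cycle inhibitor p21, had 3110, 3527 and 6239 in female inserts, against 8572, 9767 and 11065 in male inserts (-1.36 ± 0.16), and Gdf15, a stress cytokine, and Tnfrsf10b, a death receptor, were lower at -2.51 ± 0.54 and -2.001 ± 0.20. Perp, a p53 and p63 target that is also a desmosome component, was higher with 29677, 36004 and 58388 in female inserts, against 9222, 11179 and 11974 in male inserts (1.81 ± 0.15), and Cdkn2b at 0.85 ± 0.17.

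In the unfolded protein and integrated stress response list 13 were called higher and 6 lower of 31 measured, with a median log2 difference of 0.22. Manf, an endoplasmic reticulum factor, and Slc7a11, the cystine transporter, were higher at 0.90 ± 0.20 and 0.90 ± 0.21. Trib3 and Atf3, both induced by ATF4, were lower at -2.57 ± 0.48 and -2.37 ± 0.33, and Trib3 differed by -1.34 in inserts 1 to 3 and -3.80 in inserts 4 to 6. Heat shock genes gave 10 higher and 1 lower of 17 measured, with a median of 0.30 (under equal totals 7 called higher and 2 lower), and 10 higher and 4 lower without female air insert 1. Hspa1a and Hspa1b, near-identical copies whose reads may be split, were higher at 1.57 ± 0.10 and 1.68 ± 0.10, and Cryab, a small heat shock protein, was lower at -1.72 ± 0.25. NRF2 and antioxidant genes gave 6 called higher and 12 lower of 40 measured, with a median of 0.02 (-0.22 without female air insert 1 and -0.11 under equal totals), and 10 higher and 20 lower without female air insert 1. Duox1, a hydrogen peroxide producing oxidase, and Prdx5 were higher at 1.76 ± 0.17 and 1.44 ± 0.38, and Gpx3, an extracellular glutathione peroxidase, and Hmox1, heme oxygenase, lower at -3.41 ± 0.40 and -1.54 ± 0.12.

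Genes that handle foreign compounds, which matter before a smoke exposure, differed one by one. For xenobiotic metabolism 14 were called higher and 18 lower of 45 measured, with a median log2 difference of -0.34. Cyp1b1, which activates polycyclic hydrocarbons, had 610.1, 1027 and 1427 in female inserts, against 3605, 4218 and 4284 in male inserts (-2.02 ± 0.18), and no female insert reached a male value. Aldh1a3, which makes retinoic acid, had 1753, 4081 and 6977 in female inserts, against 129.8, 167 and 215 in male inserts (4.54 ± 0.32), and Cyp26b1, which degrades it, had 54.7, 329 and 489 in female inserts, against 1751, 2177 and 3112 in male inserts (-3.13 ± 0.43). Ephx2, soluble epoxide hydrolase, was higher (2.88 ± 0.32). For glutathione transferases, 8 were called higher and 5 lower of 24 measured, with a median log2 difference of 0.40 (0.13 without female air insert 1), and 8 higher and 8 lower without female air insert 1. Gstm2, which has close paralogues, and Mgst1 were lower at -2.31 ± 0.26 and -1.69 ± 0.23, and Gsto2 and Mgst2 higher at 1.91 ± 0.33 and 1.71 ± 0.42. Among steroid receptors and steroid conversion genes 5 were called higher and 6 lower of 16 measured, with a median log2 difference of 0.09 (0.06 without female air insert 1 and -0.04 under equal totals). Hsd17b2, which inactivates oestradiol and testosterone, had 535, 598 and 1036 in female inserts, against 12.1, 26.1 and 47.5 in male inserts (4.68 ± 0.38), and Greb1, an oestrogen-responsive gene, had 1.52, 35.0 and 86.6 in female inserts, against 0, 0 and 0.788 in male inserts (4.60 ± 0.73). Akr1c14, a hydroxysteroid dehydrogenase, had 186, 397 and 590.0 in female inserts, against 2055, 3556 and 4816 in male inserts (-3.23 ± 0.31), and Fkbp5, a glucocorticoid-induced chaperone, was lower (-1.41 ± 0.15).

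Lipid and energy genes showed small shifts with a few large ones. For cholesterol synthesis, 12 were called higher and 2 lower of 23 measured, with a median log2 difference of 0.51, with Fdps and Dhcr7, enzymes of the pathway, higher at 1.27 ± 0.34 and 1.24 ± 0.17 and the regulator Insig1 lower at -1.86 ± 0.26. For fatty acid synthesis 4 were called higher and 6 lower of 22 measured, with a median log2 difference of 0.02 (0.11 without female air insert 1 and -0.12, with 1 called higher and 6 lower, under equal totals). Scd1, stearoyl-CoA desaturase, had 599, 1131 and 1201 in female inserts, against 11436, 14802 and 16916 in male inserts, a difference of -3.81 ± 0.17 (adjusted p = 6.07e-09), and Pparg, its nuclear receptor regulator, was lower too. Elovl7 and Fasn, an elongase and the fatty acid synthase, were higher at 1.85 ± 0.11 and 0.40 ± 0.15. The Fasn call was lost when any one of 10 libraries was left out (limma adjusted p up to 0.103), and between 2 and 8 genes of the list were called higher as single libraries were left out, the most without female air insert 1. In the oxidative phosphorylation list limma called 0 higher and 2 lower of 37 measured, with a median log2 difference of 0.11 (-0.19 without female air insert 1 and -0.02, with 0 called higher and 6 lower, under equal totals). At an unadjusted p under 0.05 it was 1 higher and 4 lower, and edgeR called 1 higher and 1 lower. The 2 lower by limma were Atp5b (-0.31 ± 0.11) and Ndufs1 (-0.22 ± 0.07), subunits of ATP synthase and of complex I. Leaving out any one of 10 libraries ended the Atp5b call and either of 2 the Ndufs1 call, and without female air insert 1 the counts were 1 higher and 23 lower. None of 36 ribosomal protein genes was called in either direction by limma or by edgeR or reached an unadjusted limma p under 0.05, with a median log2 difference of 0.41 (-0.00071 without female air insert 1). Without that insert limma called 4 higher and 6 lower. Most of those transcripts are short, and the part of the insert's shift with length was not tested. For glycolysis and hypoxia 4 were called higher and 10 lower of 33 measured, with a median log2 difference of -0.11 (-0.26 without female air insert 1 and under equal totals 2 called higher and 13 lower). Between 2 and 4 were higher as single libraries were left out, with the lower count reaching 16 without female air insert 1. Named members were Vegfa, the vascular growth factor, at 439, 623 and 868 in female inserts, against 2500, 2678 and 2880 in male inserts (-2.11 ± 0.18) and Hif3a also lower (-2.08 ± 0.25), and Pdk1 and Pfkfb4 higher at 0.85 ± 0.14 and 0.73 ± 0.12.

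Cell cycle genes leaned upward by a small amount. In that list 21 were called higher and 2 lower of 48 measured, with a median log2 difference of 0.33 (under equal totals 9 called higher and 3 lower). It was 27 higher and 4 lower without female air insert 1, and 13 higher without female air insert 6. Melk, a mitotic kinase, had 337, 422 and 516 in female inserts, against 121, 152 and 205 in male inserts (1.47 ± 0.15), and Cdk1 and Mki67, the kinase of mitosis and the proliferation marker Ki-67, differed by 1.09 ± 0.22 and 0.52 ± 0.13. Rrm1 and Mcm2, needed for DNA synthesis, were lower at -0.85 ± 0.09 and -0.60 ± 0.15. For clock genes 4 were called higher and 9 lower of 19 measured, with a median log2 difference of -0.35 (-0.16 without female air insert 1), with Bhlhe41 and Bhlhe40, repressors of the clock, higher at 2.64 ± 0.29 and 1.21 ± 0.25, and Ciart and Per1 lower at -1.12 ± 0.18 and -0.83 ± 0.13. For actin cytoskeleton and motility 12 were called higher and 4 lower of 37 measured, with a median log2 difference of 0.18, with Vil1 and Tpm2 higher at 2.84 ± 0.28 and 2.61 ± 0.33 and Actn1 and Pxn, of focal adhesions, lower at -1.45 ± 0.30 and -0.71 ± 0.09. Among proteases and inhibitors, 12 were called higher and 10 lower of 37 measured, with a median log2 difference of 0.20. Tmprss11d and Tmprss11b, serine proteases of squamous and airway epithelium, differed by 5.54 ± 0.38 and 5.12 ± 0.62, and Klk10 and Timp3 were lower at -2.32 ± 0.41 and -2.17 ± 0.17.

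**Figure D4:**
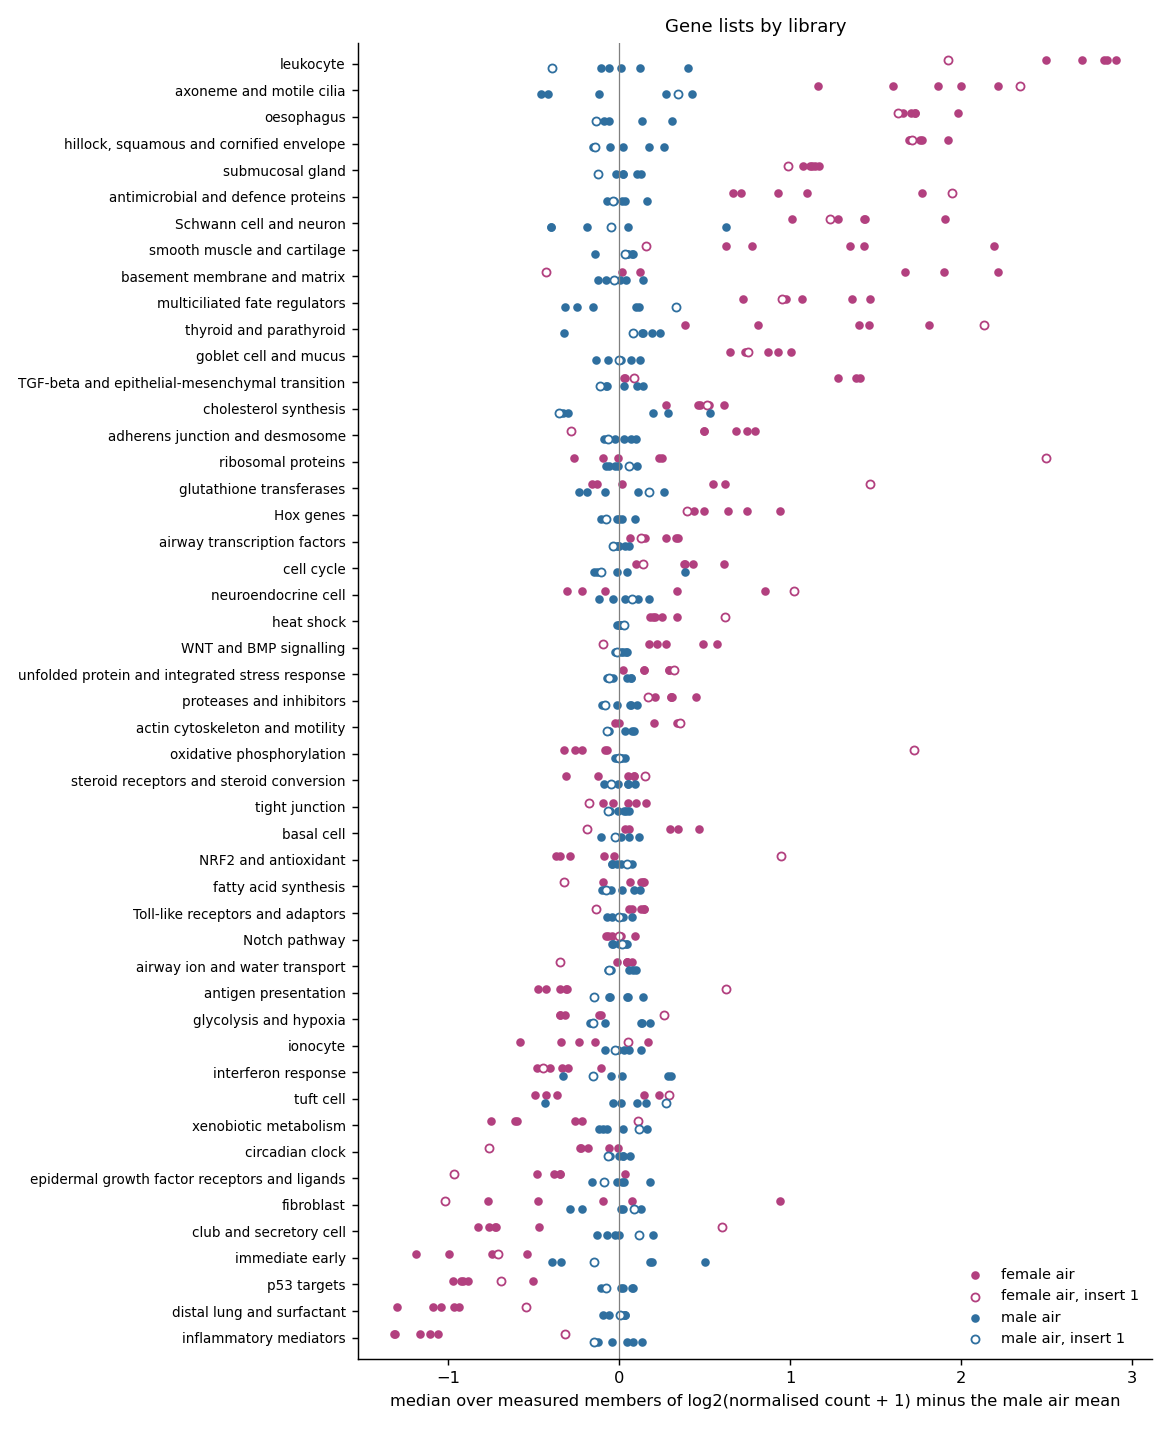
Median over the measured members of each gene list of log2(normalised count + 1) minus the mean of the 6 male air inserts, 1 point per insert, female air drawn above male air in each row. Open circles mark insert 1. The female points lie right of the male points for axoneme, oesophagus and squamous genes and left of them for inflammatory, p53 and immediate early genes. For ribosomal and oxidative phosphorylation genes only female air insert 1 lies far to the right.

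Inserts 1 to 3 and inserts 4 to 6 were also compared separately. Inserts 1 to 3 alone called 2602 genes (19.7%) and inserts 4 to 6 alone 8109 (61.4%). Called in each block with the same sign were 2359 genes (17.9%), and 27 genes were called in both with opposite signs. Among the 20 top genes the smallest shifts between the blocks were those of Grid2ip, with 6.66 in inserts 1 to 3 and 6.75 in inserts 4 to 6, and Sftpb, with -4.66 in inserts 1 to 3 and -4.84 in inserts 4 to 6. Psca differed by 9.23 in inserts 1 to 3 and 7.41 in inserts 4 to 6, Tgm3 by 10.57 in inserts 1 to 3 and 8.55 in inserts 4 to 6, and Amtn by 5.39 in inserts 1 to 3 and 9.32 in inserts 4 to 6. C1qtnf3 differed by 4.99 in inserts 1 to 3 and 8.35 in inserts 4 to 6 and Adamts18, a secreted metalloprotease with 4.56, 81.6 and 226 in female inserts, against 0, 0 and 0.731 in male inserts, by 3.23 in inserts 1 to 3 and 7.22 in inserts 4 to 6. The labels do not say what the blocks are.

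Gene lists also differed between the blocks in their median log2 difference. Beside the matrix and fibroblast lists, the median changed sign for antigen presentation, at 0.28 over inserts 1 to 3 and -0.54 over inserts 4 to 6, for oxidative phosphorylation, at 0.48 over inserts 1 to 3 and -0.26 over inserts 4 to 6, and for glycolysis and hypoxia, at 0.11 over inserts 1 to 3 and -0.47 over inserts 4 to 6. The same held for NRF2 and antioxidant genes, at 0.25 over inserts 1 to 3 and -0.28 over inserts 4 to 6, and for ribosomal proteins, at 0.96 over inserts 1 to 3 and -0.07 over inserts 4 to 6. Female air insert 1 is part of the first block. Medians of the ion transport, Notch, endothelial, Toll-like and fatty acid lists also changed sign, by smaller amounts. Of the lists with 1 sign in both blocks, the difference was farther from 0 in inserts 4 to 6 for inflammatory mediators (-0.74 over inserts 1 to 3 and -1.38 over inserts 4 to 6), immediate early genes (-0.58 over inserts 1 to 3 and -1.26 over inserts 4 to 6), interferon response genes (-0.06 over inserts 1 to 3 and -0.57 over inserts 4 to 6), xenobiotic metabolism (-0.02 over inserts 1 to 3 and -0.66 over inserts 4 to 6) and Hox genes (0.19 over inserts 1 to 3 and 0.88 over inserts 4 to 6). The same was true of Schwann cell and neuron genes (0.89 over inserts 1 to 3 and 1.87 over inserts 4 to 6). It was nearer to 0 in inserts 4 to 6 for cholesterol synthesis (0.95 over inserts 1 to 3 and 0.16 over inserts 4 to 6), thyroid and parathyroid genes (1.62 over inserts 1 to 3 and 0.39 over inserts 4 to 6) and skeletal muscle genes (1.19 over inserts 1 to 3 and 0.37 over inserts 4 to 6).

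**Figure D5:**
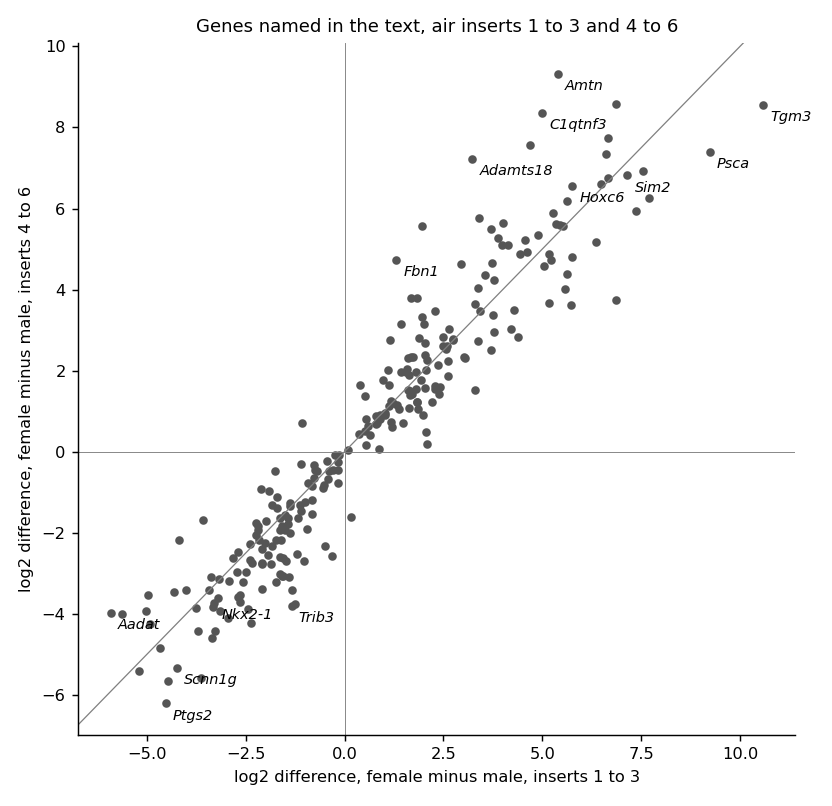
Log2 difference, female air minus male air, in inserts 1 to 3 (horizontal axis) and in inserts 4 to 6 (vertical axis) for the autosomal genes named in the text that were tested, 1 point per gene. The diagonal marks equal values. Most genes lie near the line, Amtn, C1qtnf3, Adamts18 and Fbn1 lie above it, and Trib3, Tgm3 and Psca are among those below.

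The authors' deposited table of the same contrast gave an adjusted p for 12679 of the genes and called 6046 of them at the same threshold. Of these, 5511 were also called here, and all 5511 had the same sign once the table's direction was matched to female over male. For the secretoglobins the authors' DESeq2 differences were smaller in size than those here. Scgb1a1 stood at -1.55 (adjusted p = 0.0207), Scgb3a1 at -1.08 (adjusted p = 0.121) and Scgb3a2 at -0.97 with no adjusted p.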

How the data were processed

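RNA was sequenced from inserts of mouse tracheal cultures. The authors deposited a table of normalised counts (signal; read counts divided by a size factor), trimmed with Trimmomatic, counted with HTSeq and scaled with DESeq2 on GRCm38 (mm10), per the submitters' processing notes; strandedness is not given in the sources used here. Whole read counts were recovered from the deposited values in all 12 air columns, where 100% of values came out whole within 0.001 reads. The deposited table of log2 fold changes and p-values by the authors served as a check. Genes with a mean of at least 10 over the 12 air libraries (13624 on all chromosomes, 13199 autosomal) were fitted with limma 3.58.1 (R 4.3.3, trend) on log2(value + 1), with Benjamini-Hochberg adjustment over all 13624 and a threshold of 0.05. Recovered counts were tested with edgeR 4.0.16 and DESeq2 1.42.0 as alternatives. The fit was tested on simulated counts with the same dispersion for all genes and no outlying insert or blocks. That run says nothing about those features of the data. Members, the 51 gene lists and the motif were chosen with earlier results of these data known. Named genes were the 10 highest and 10 lowest called with the same sign without female air insert 1, with a higher-set mean of 50 or more and no overlap, the 2 highest and 2 lowest called per list and those without reads in one set; the others were chosen after their values were seen. A gene the rule picked is not reported here. Genes named Gm plus digits or as clones were counted and not named. Female and male inserts share numbers only, so no pairing was used.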

Additional observations from a re-analysis of the deposited data

Results flagged for a closer look

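Each named gene was checked in each set of 6 inserts for a single value far from the other 5. The measure was the gap from the highest or lowest insert to its nearest neighbour, as a share of the set's whole range, with the 95% critical value of Dixon's test as the limit. Of 504 sets checked, 66 passed the limit, where chance alone passes about 1 in 20.

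Most of these were female air insert 1, the library whose values moved with transcript length. It was the highest female insert for 27 genes, with the gap shares Agr2 (0.734), Aqp5 (0.688), Atp5b (0.67), Cd14 (0.889), Cdk1 (0.725), Cib3 (0.718), Csta1 (0.796), Fdps (0.799), Hopx (0.763), Hoxb3 (0.713), Hsd17b2 (0.768), Ifitm1 (0.669), Kcne3 (0.654), Krt10 (0.803), Krt15 (0.758), Ltf (0.65), Manf (0.864), Mgst2 (0.721), Pifo (0.626), Prdx5 (0.842), Psca (0.682), S100b (0.769), Sbsn (0.627), Scgb3a2 (0.688), Sftpb (0.706), Sftpc (0.719) and Wfdc15b (0.706). It was the lowest for 23 genes, with the gap shares Abca13 (0.911), Car12 (0.643), Dhcr7 (0.694), Fosl2 (0.771), Foxa1 (0.697), Greb1 (0.663), Hoxa6 (0.645), Itgam (0.789), Jag1 (0.805), Krt6a (0.632), Maml1 (0.775), Mbp (0.787), Nid2 (0.664), Nod1 (0.853), Nrg1 (0.734), Pax9 (0.916), Pdk1 (0.789), Per1 (0.791), Pkp2 (0.693), Pxn (0.663), Scd1 (0.741), Sox2 (0.649) and Tmprss11b (0.917). How much of this follows transcript length was not tested gene by gene.

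Female air insert 5 stood above the other female inserts for Ano3 (0.772), Cdkn1a (0.798), Ereg (0.735) and Nkx2-9 (0.686) and below them for Cyp26b1 (0.7) and Hoxb5 (0.644). In the male set, insert 1 was lowest for Hoxa6 (0.75), insert 2 was highest for Stmn2 (1), insert 2 was lowest for Reg3g (0.728), insert 3 was highest for Moxd1 (0.738), insert 4 was highest for Cdk1 (0.632) and Mki67 (0.654), insert 4 was lowest for Plcb2 (0.652), insert 6 was highest for Adamts18 (1), Hoxc6 (1) and Tgm7 (1). A share of 1 here is a gene with reads in 1 male insert and none in the other 5, which is a count of 1 or a few reads.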

How the results depend on the processing

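Of 252 named genes tested, 244 were called, and none of these changed direction in any alternative run. Call and direction were kept by 183 of them in every alternative, and most of the lost calls (51 genes) came with inserts 1 to 3 alone. Many genes had been named because they were called, with the same sign again without female air insert 1. For those, keeping the direction was in part fixed in advance and says little about genes at large. Of the genes not called, Trp63 turned to -0.066 under equal totals and to -0.0031 under quantile scaling, Spdef turned to -0.0213 under quantile scaling, Sprr1a to 0.17 in inserts 1 to 3, and Cftr to 0.16 with array weights, 0.70 in inserts 4 to 6 and 0.14 by edgeR without female air insert 1. Across omissions of single libraries, Cftr ranged from -0.39 to 0.10 and Trp63 from -0.00503 to 0.15.

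The count of calls, 5573 with 3007 higher and 2566 lower, was 9049 with 4539 higher and 4510 lower when limma's array weights were used. It was 2602 with 1575 higher and 1027 lower in inserts 1 to 3 and 8109 with 4086 lower in inserts 4 to 6, at the same number of inserts. A further demand for a log2 difference of at least 1 left 2395, with 1568 higher and 827 lower. An edgeR fit without female air insert 1, chosen after seeing the data, called 8788, with 4406 lower. Omitting single libraries gave 4923 to 8746 calls, 2721 to 4401 higher and 2176 to 4345 lower, the most without female air insert 1 and 4923 to 5334 otherwise. The cause of these shifts was not tested. By edgeR with every library the count was 5748 and by DESeq2 6309.

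A replicate block on insert number called 5185 genes. Deviations of same-numbered female and male inserts correlated at 0.035 to 0.201, and not every insert correlated best with its own number, so the numbers were not taken as pairs.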

Other observations

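The smoke-exposed inserts of the same culture sets, 6 per sex, entered the fits above only through an alternative fit over all 4 groups. They may also have had a part in the deposited scaling, since the deposited values cover all 24 libraries together. The smoke inserts gave a second set of libraries without an air insert in it. Of the 5573 genes called in air, 5165 had a log2 difference of the same sign between female and male smoke inserts, as had 2250 of the 2395 with a difference of at least 1 in size and all 20 of the top genes. The same share over all tested genes was not counted, so these counts have no base to be read against. Tgm3 had 1646, 3994 and 7795 normalised counts in female smoke inserts, against 8.31, 9.85 and 15.8 in male smoke inserts. Sim2 had 971, 1457 and 1582 normalised counts in female smoke inserts, against 9.72, 12.8 and 22.2 in male smoke inserts, and Scnn1g had 48.2, 99.5 and 152 normalised counts in female smoke inserts, against 447, 851 and 1042 in male smoke inserts. None of the 3 genes overlapped between the smoke sets. Some named genes turned sign. Uchl1 and Atp6v1b1, higher in female air inserts, differed by -1.68 and -1.67 between the smoke sets, and Areg, lower in air, by 0.51. These values are given as a description, with no test, because the air genes were chosen first and both sets had been exposed to smoke.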
